A study of Drosophila melanogaster with 3 samples.

Results

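Chromatin bound by Pif1B-eGFP was examined at 10 Polycomb group genes of Drosophila melanogaster: ph-p, ph-d, Pc, Psc, Su(z)2, Sce, E(z), esc, Su(z)12 and pho. They were taken by name from Ensembl's BDGP6 annotation, in which all 10 were found among 13945 protein-coding genes of the chromosome arms. Every region of the peak lists whose summit lay inside 1 of these genes or within 2 kb of it was assigned to that gene. The libraries came from whole pupae of a transgenic line that stably expresses Pif1B (PFTAIRE-interacting factor 1B) with a green fluorescent protein at its C terminus, precipitated with an anti-GFP antibody from sonicated chromatin. There was 1 group of 3 biological replicates, each of a separate biosample of mixed sex and an age given as unknown. No untagged, treated or staged group was part of the design, so the values are descriptions, with no test. Whole animals mix all tissues, no source used here gives the promoter of the transgene, and peak lists hold no tissue marker against which the labelled stage could be checked.

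Polycomb group proteins keep developmental genes, among them the Hox genes, silent in cells where they were not activated early on. Polycomb repressive complex 2 (PRC2) methylates histone H3, and Polycomb repressive complex 1 (PRC1) recognises that mark, ubiquitinates histone H2A and compacts chromatin, while the Pho repressive complex (PhoRC) carries the DNA-binding protein Pho to Polycomb response elements. The ph locus and the Psc and Su(z)2 locus are known as targets of Polycomb proteins themselves.

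The sequences below come from the summits of 6 regions, which are not the 6 strongest, and from an aligned stretch of the ph-p and ph-d copies. They are plus-strand dm6 coordinates and bases of the RefSeq release of the same assembly. Capitals in the first 6 mark GCCAT, the core of the Pho site, or its reverse complement ATGGC. A window that met an annotated untranslated region is cut to 29 bases. The strongest ph-p region, the 2 regions between ph-d and ph-p, and ph-p region 4, which holds a Pho core in an intron, are shown beside the centres of the Pc and E(z) regions.
ph-p region 1, chrX:2137255-2137355: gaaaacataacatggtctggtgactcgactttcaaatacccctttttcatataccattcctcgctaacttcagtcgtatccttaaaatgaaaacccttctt
ph-p region 4, chrX:2134356-2134456: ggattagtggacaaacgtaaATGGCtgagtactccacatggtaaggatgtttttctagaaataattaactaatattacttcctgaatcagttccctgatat
ph-d region 1, chrX:2124220-2124320: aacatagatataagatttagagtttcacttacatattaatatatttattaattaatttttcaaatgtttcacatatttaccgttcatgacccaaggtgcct
ph-d region 3, chrX:2124440-2124540: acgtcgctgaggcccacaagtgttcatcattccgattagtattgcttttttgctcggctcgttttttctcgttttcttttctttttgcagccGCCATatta
Pc region 1, chr3L:21304552-21304580: atatgacttaaatcatcagcctttgattt
E(z) region 1, chr3L:10638103-10638131: tggtacgaccctgctttgtgtagtgttga

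The next pair is the 30 ungapped aligned bases nearest to the summit of ph-d region 1, from ph-p and from ph-d. Capitals mark the 23 bases that are identical. The stretch begins 1 bp beyond that summit, and the summit of ph-p region 2 also lies outside it.
ph-p copy, chrX:2137966-2137995: TTAAgTTTattAATGTTTCAaATATccACC
ph-d copy, chrX:2124271-2124300: TTAAtTTTtcaAATGTTTCAcATATttACC

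Of the 10 genes, 5 had a summit of the reproducible list in the gene or within 2 kb: ph-p, ph-d, Pc and Psc of PRC1 and E(z) of PRC2. That list, thresholded by the authors on the irreproducible discovery rate (IDR), held 6410 regions, and 29.8% of protein-coding genes had an IDR summit by the same rule. Long genes had one more often, in 48.4% of the longest tertile (from 3534 bp), 24.4% of the middle tertile and 16.6% of the shortest tertile (below 1465 bp). All 5 genes with a summit were longer than 3534 bp, as were Su(z)2, Su(z)12 and pho, which had none. Esc and Sce, which also had none, were 2202 and 1599 bp long.

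At transcription starts the count was 4 of 10. ph-p, ph-d, Psc and E(z) each held an IDR summit no more than 500 bp from an own start, against 15.6% of protein-coding genes. Within 250 bp the count was 2, Psc and E(z), against 12.1%. Genes with more annotated starts have more places to be counted. ph-p has 3 starts and ph-d, Psc, E(z) and Su(z)2 have 2, while Pc, Sce, esc, Su(z)12 and pho have 1. The region counted for Pc lay outside the gene and at the promoter of other genes. Of the pooled lists, Su(z)2 and Sce had regions in the relaxed one alone, which also holds background, so that 7 of the 10 genes had a relaxed summit against 54.7% of protein-coding genes. Esc, Su(z)12 and pho had none in the pooled lists.

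**Figure D1:**
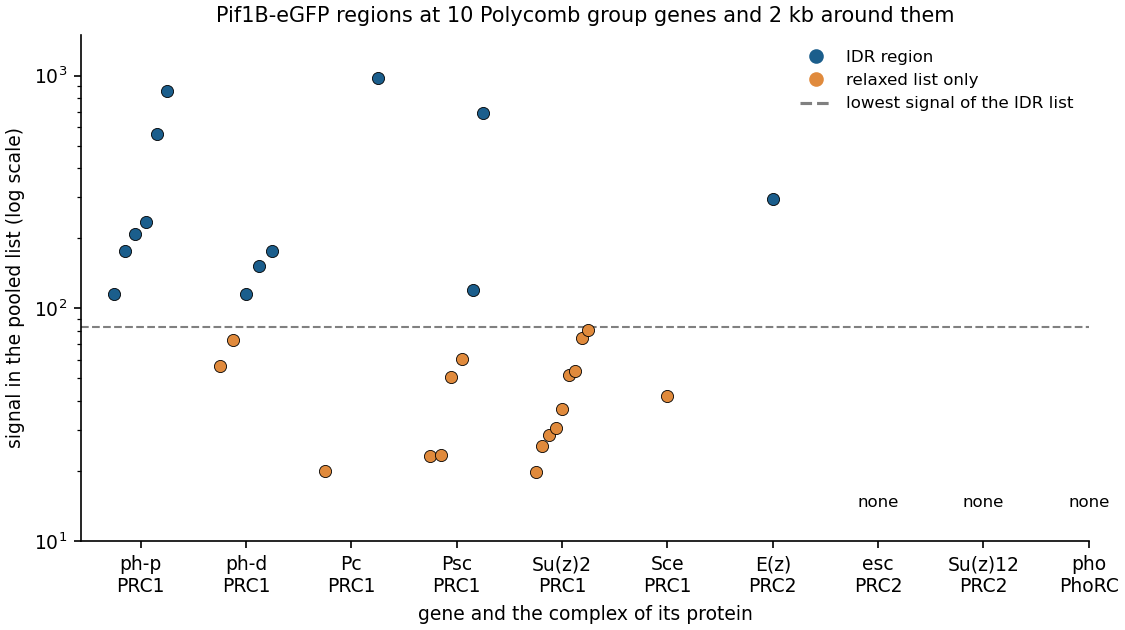
Signal of each pooled region (log axis) in each gene or within 2 kb of it, with the complex of the protein under the gene name. Blue points are IDR regions, orange points are in the relaxed list only, and the dashed line is the lowest signal of the IDR list, 83.2. The 2 regions between ph-d and ph-p are drawn at both genes. Pc, ph-p and Psc reached signals of 975, 856 and 694, while Su(z)2 stayed below the line at 80.8.

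The 11 distinct IDR regions at these genes had signals from 115 to 975, with a median of 236 beside a median of 137 in the whole list, whose range was 83.2 to 1933. The signal is the peak caller's own value and ranks regions within a list. 7 of the 11 regions belonged to the tandem pair ph-p and ph-d. A further 17 regions were in the relaxed list only, with signals from 19.7 to 80.8. All 11 were supported by each replicate, that is, overlapped 1 of its 6410 strongest regions, which was the case for 65.6% of the IDR list. The 11 end at rank 4230 of that list, so the share includes weaker regions than any of them. With a replicate summit required within 100 bp, 9 of the 11 kept full support, a count with no share of the whole list beside it. Taken by replicate, the 6410 strongest regions reached 5, 6 and 6 of the 10 genes in replicates 1, 2 and 3, beside 31%, 34.1% and 30.6% of protein-coding genes. The 5 genes were the same each time, replicate 2 added Su(z)12 and replicate 3 added Su(z)2.

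The polyhomeotic genes encode SAM-domain proteins of PRC1 whose polymers cluster bound chromatin. They lie in tandem on the minus strand of X, ph-p at 2126210 to 2138371 and ph-d at 2115727 to 2123286, with 2923 bp between them. ph-p carried 6 IDR regions, counting 2 that lie outside it in the 2 kb toward ph-d. That was more than 98.5% of protein-coding genes of any length, and 216 genes had as many or more. ph-p is itself longer than 88.2% of these genes. Its strongest region exceeded the strongest of 97.7% of genes that had one. ph-d carried 3, of which 2 lie between the genes and count for both, and its strongest region exceeded that of 48.9% of such genes.

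ph-p region 1 (chrX:2137079-2137559) had a pooled signal of 856 and rank 54 in the IDR list. Its signals in replicates 1, 2 and 3 were 311, 237 and 420, with ranks of 53, 66 and 25. It was thus among the strongest regions of every library, and replicate 3 ranked it highest. The summit lay 450 bp upstream of an inner start of ph-p (2136855), inside intron 1 of the transcripts that begin further out.

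ph-p region 2 (chrX:2137680-2138113) had a signal of 564 and rank 196, with replicate ranks of 194, 225 and 199. The 3 libraries ranked it nearly alike. Its summit lay in the 5′ untranslated region, 407 bp downstream of the outermost start (2138371). The 2 strongest regions of ph-p thus both lay between its outermost and inner starts.

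Both weaker regions of ph-p were intronic. Region 3 (chrX:2135198-2135627), 1209 bp downstream of the nearest start, had a signal of 236 and replicate ranks of 1667, 1818 and 1172. Region 4 (chrX:2134347-2134504), 2216 bp downstream, had a signal of 209 and replicate ranks of 2608, 1233 and 1756.

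The pair of regions between the genes lay 984 and 1204 bp upstream of the ph-d start. Region 1 of ph-d (chrX:2124134-2124391) had a signal of 177 and ranks of 3255, 1132 and 2335. Region 3 (chrX:2124358-2124568) had a signal of 115 and ranks of 4009, 1132 and 2335. The intervals overlap each other and met the same region in replicates 2 and 3, so their support in those libraries is a single region. Region 2 of ph-d (chrX:2121907-2122336), in intron 1 and 330 bp upstream of an inner start (2121792), had a signal of 152 and ranks of 3913, 1586 and 4502. Replicate 2 ranked each of the 3 highest.

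The main start of ph-d had no IDR summit. It held relaxed regions of 72.7, whose summit was 86 bp downstream, and 56.6, 187 bp upstream. The first had ranks of 4291, 13534 and 8541, so in replicate 1 alone it was among the 6410 strongest.

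**Figure D2:**
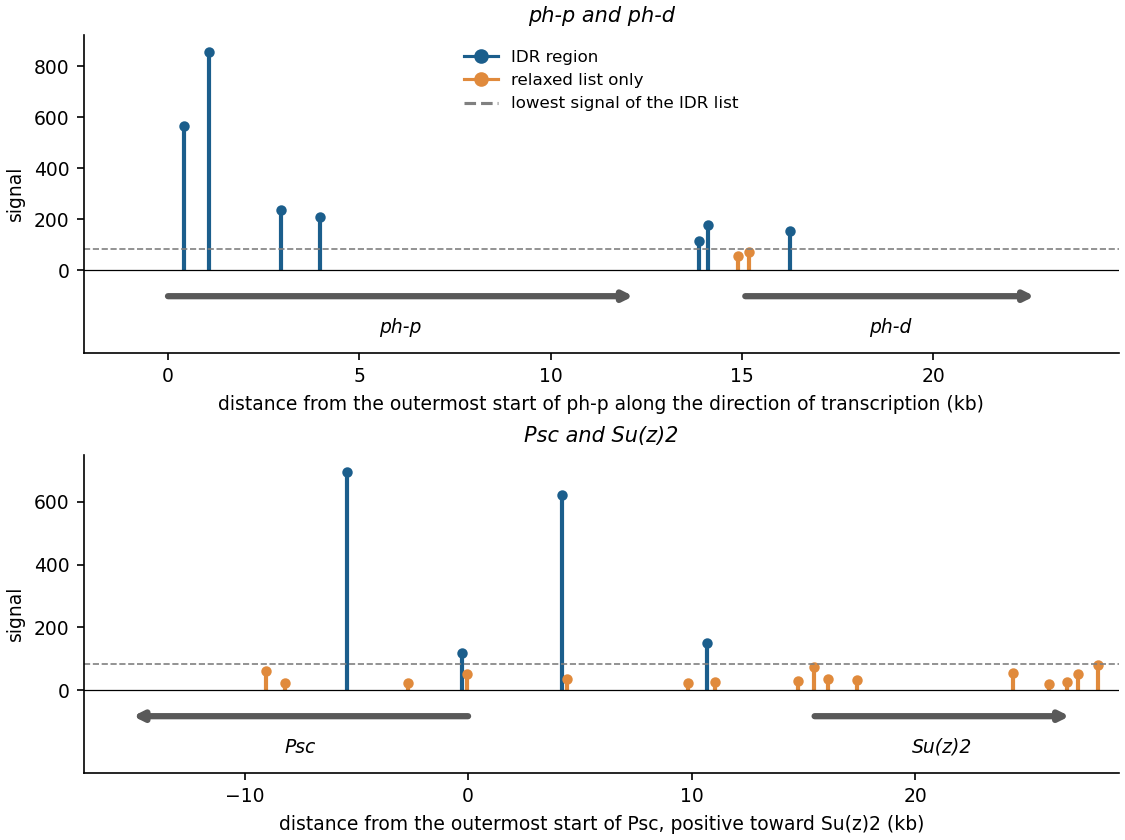
Signal of each pooled region at ph-p and ph-d (upper panel, distance from the outermost ph-p start in kb) and at Psc and Su(z)2 with the sequence between them (lower panel, distance from the outermost Psc start in kb). Grey arrows are the genes in the direction of transcription, blue stems IDR regions, orange stems regions of the relaxed list only, and the dashed line the lowest IDR signal. The ph-p stems are highest near its starts, at 564 and 856, and the far part of both ph genes is empty. The Psc and Su(z)2 stems are highest inside Psc, at 694, and between the genes, at 623.

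The 2 ph genes are copies of each other, and their upstream parts were aligned to see whether the regions lay at matching places. The ph-d start corresponded to the inner ph-p start with 0 bp between them. From around that point upstream 3 blocks aligned, at 90.7%, 70.5% and 81.0% identity over 529, 387 and 358 alignment columns. The block at 90.7% identity spans the starts, from 2136747 in ph-p and 2123181 in ph-d. In ph-p all 3 blocks lie inside the annotated gene, downstream of its outermost start (2138371). In ph-d only part of the 90.7% block lies inside the gene, and the other blocks lie upstream of the ph-d start (2123286). The summit of ph-d region 1 fell in the third block, and its counterpart in ph-p was 2 bp from the summit of ph-p region 2. The pooled signals at this shared position were 177 in ph-d and 564 in ph-p. The ph-d summit was intergenic, while the ph-p summit lay in the 5′ untranslated region. The summit of ph-d region 3 lay in the same block without such a match. That region aligned at 81.4% over 220 columns to chrX:2138053-2138264, which held no ph-p summit.

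The strongest ph-p region had no counterpart of this kind. Its summit lay in 208 bp between the first 2 blocks that aligned to nothing in ph-d, where the blocks were 15 bp apart. The flanks of the region did align. Its first 186 bases were 90% identical to sequence just upstream of the ph-d start. The nearest ph-d summit in that block was the relaxed region of 56.6, whose counterpart in ph-p was 266 bp from the summit of region 1.

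In a blastn search kept to hits without a mismatch, 0.897% of the 36-base words in ph-p region 1 occurred again on the arms. For the other 10 regions it returned none. It can miss words inside longer imperfect matches, so these shares may be too low. Inexact similarity was present: sequence within the first 85 bases of ph-d region 1 aligned at 79.5% to 83.0% identity to places on X, 2L and 3R. In the gene bodies each word was counted directly, which is another measure. A stretch of 4480 alignment columns was 92.0% identical between the genes (chrX:2126824-2131227 in ph-p), and 56.0% of its 36-base words in ph-p and 55.4% in ph-d occurred again on the arms. Neither copy held a pooled summit in it. No source used here gives the read length or the treatment of reads with several matches, and the part of repeated sequence in the absence of summits was not tested.

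**Figure D3:**
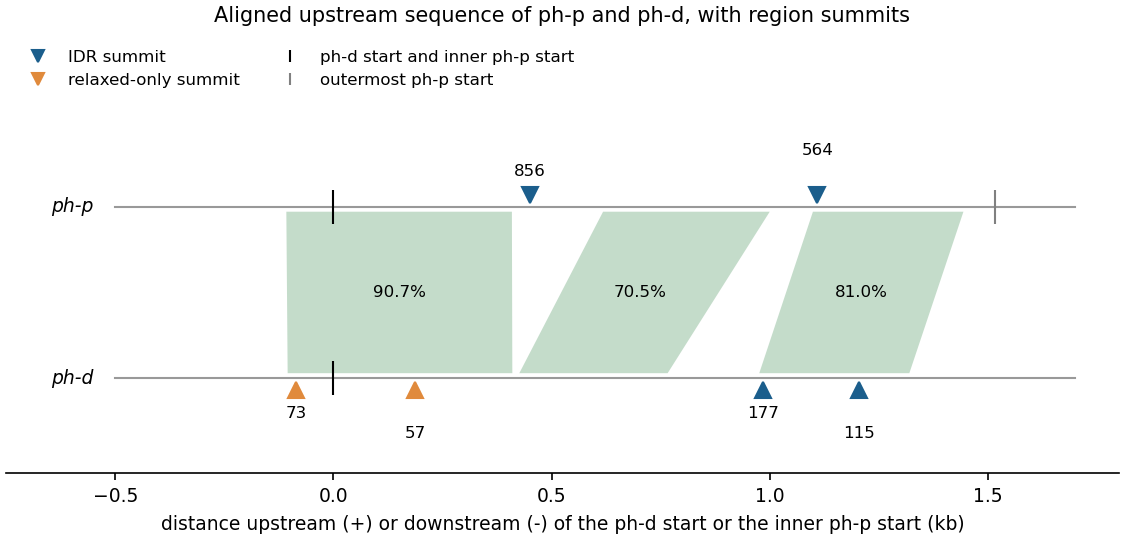
Sequence at and upstream of the inner ph-p start and the ph-d start (both at 0 kb, black bars) with aligned blocks in green and their percent identity. Triangles are region summits with their pooled signal, blue for IDR and orange for relaxed only, and the grey bar is the outermost ph-p start. The summits of 564 and 177 face each other at the edge of the third block, while the summit of 856 sits between blocks. The ph-d summit of 115 lies in the third block with no ph-p summit opposite.

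Psc and Su(z)2 encode related RING-finger proteins that take the same place in PRC1 and compact chromatin. They are divergent neighbours on chromosome arm 2R, with 15506 bp between them. Psc (12965997 to 12980994) had 2 IDR regions. Region 1 (chr2R:12975415-12975757), in intron 2 and 5074 bp downstream of a start, had a signal of 694 and rank 100, with replicate signals of 213, 242 and 233 and ranks of 167, 60 and 147. It stood above the strongest region of 95.5% of genes with any, and replicate 2 ranked it highest.

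Region 2 of Psc (chr2R:12980511-12980940) lay at a start (12980658), 68 bp upstream of it and inside the 5′ untranslated region of longer transcripts. Its signal was 119 and its replicate ranks were 3332, 3608 and 5596. It was thus the region of the 11 that came nearest to falling outside the 6410 strongest of a replicate. Psc also held 4 regions of the relaxed list only, from 23.1 to 60.2.

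Su(z)2 (12996501 to 13007911) had no IDR region but 9 relaxed ones. Among genes with at least 9 relaxed regions, 92.8% had an IDR summit. The strongest, at 80.8, lay 1261 bp beyond the 3′ end, with ranks of 8669, 10354 and 4182. The next, at 74.2, lay 24 bp upstream of the start, with ranks of 6939, 21314 and 4792. Both were within the 6410 strongest of replicate 3 alone. Both were under the lowest IDR signal of 83.2, at pooled ranks of 6637 and 7405.

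The sequence between the pair held IDR regions that the 2 kb limit left out. The strongest of these, at 623 and rank 153, was 4.21 kb from Psc at a start of lncRNA:CR44339. Another, at 150, lay 4.82 kb from Su(z)2, away from any start. The interval also held 5 relaxed regions, among them the one of 74.2 at the Su(z)2 start and another, of 28.6, that are counted for Su(z)2 above.

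Pc encodes the chromodomain protein of PRC1 that binds methylated histone H3. The region within 2 kb of it was the strongest of the 11, with a signal of 975 and rank 35 (chr3L:21304382-21304754). Its replicate signals were 329, 303 and 347 and its ranks were 43, 26 and 44. All 3 libraries placed it high and close together.

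That region was at the promoter of neighbours of Pc. Its summit lay 1572 bp beyond the 3′ end of Pc and 13454 bp from the Pc start, but 92 bp from a start of CG11309 and 131 bp from the start of CG7632. These genes are divergent, with starts 39 bp apart. Within Pc itself (21306138 to 21318020) there was a single relaxed region, of 19.9, in the 3′ untranslated region. It was met by a region of replicate 3 at rank 25765 and by none of replicates 1 and 2.

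Sce encodes the RING protein of PRC1 that ubiquitinates histone H2A. Its only region, of 42.1, was in the relaxed list and 1251 bp outside the gene, 111 bp from a start of CG12883. It ranked 12196 and 15856 in replicates 1 and 2 and was absent from replicate 3. An IDR region of 254 lay outside the 2 kb limit, 2.83 kb from Sce in the 5′ untranslated region of Hsdl2.

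E(z) encodes the histone methyltransferase of PRC2 and was the member of that complex with an IDR region. The region (chr3L:10637997-10638192) had a signal of 294 and rank 920. Its replicate signals were 123, 77.8 and 85.8, with ranks of 692, 1116 and 1383. It stood above the strongest region of 72.3% of genes with any, and replicate 1 ranked it highest.

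This summit was 13 bp inside E(z) and 29 bp from the start of Cnep1r2. The starts of these divergent genes are 16 bp apart, so the region counts for both. It was the single pooled region of E(z), and the next IDR summit was 10.5 kb away in an intron of CG32066.

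Su(z)12, a zinc-finger subunit of PRC2, had no pooled region. In replicate 2 it had 3 regions, the strongest at 63.9 and rank 1612, with a summit 86 bp downstream of its start. Replicates 1 and 3 had 0 regions there. The call in replicate 2 is therefore a value of 1 library, and 1612 is a rank within the strongest 6410.

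Esc, the WD40-repeat subunit of PRC2, had no region in any of the 5 lists. The nearest IDR summit was 10.6 kb away, in an exon of Pde1c annotated as noncoding, with a signal of 98.0. Pho, the DNA-binding subunit of PhoRC, lies on chromosome 4, where 28.8% of 80 protein-coding genes had an IDR summit in the gene or within 2 kb. It had no pooled region, and 2 regions in replicate 3, the strongest at 12.3 and rank 19424. The nearest IDR summit was 17.7 kb away at Mitf.

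**Figure D4:**
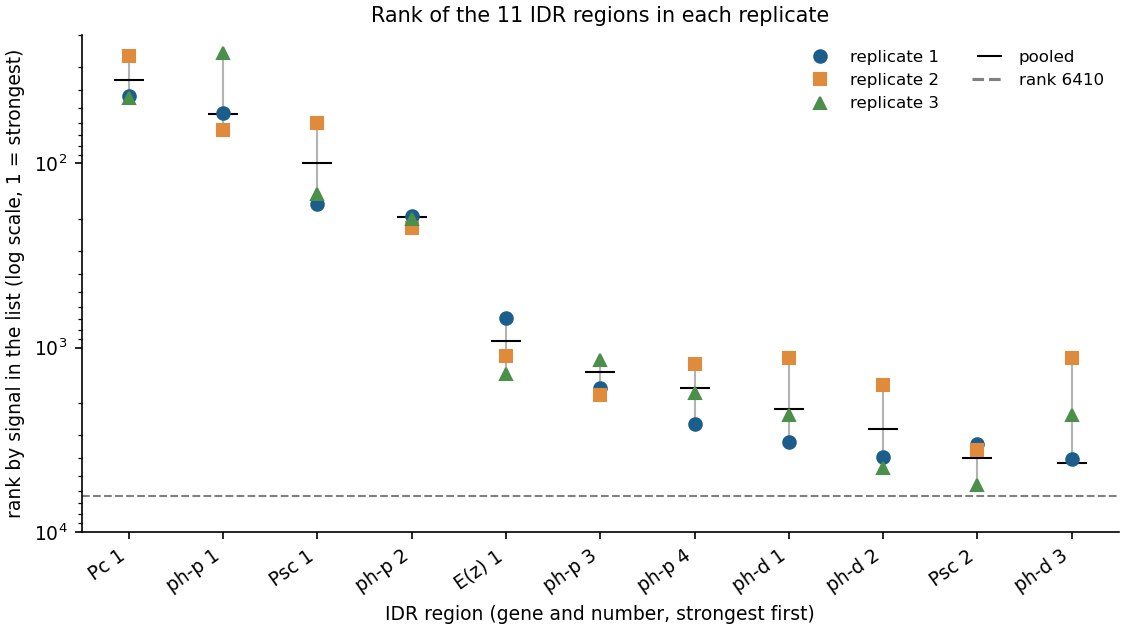
Rank by signal of the strongest overlapping region in the list of each replicate (log axis, strongest at the top) for the 11 IDR regions, ordered by pooled signal. The black bars are pooled ranks and the dashed line is rank 6410. All points lie above the line. The 4 strongest regions ranked within the first 225 in every replicate, and ph-d 1 and 3 share their points in replicates 2 and 3.

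Other genes of the group were taken from a list of 21 further subunits, cofactors and regulators, of which 10 had an IDR summit in the gene or within 2 kb. As for the members, this is to be read beside the 29.8% of all protein-coding genes, and no test was made. The strongest, 961 at phol, which encodes a relative of Pho, lay 1523 bp outside the gene at starts of CG3437 and CG3552. Another of 735 at Caf1-55, which encodes a histone-binding subunit of PRC2, lay at starts of Art3 and mRpS10. The regions at Pcl (487, in an intron of pAbp), Dsp1 (489, in CG9921), Asx (149, at CG30197) and E(Pc) (111, in qvr) likewise met other genes. Dsp1 had a second, weaker IDR region inside the gene. In all, 4 of the 21 genes held an IDR summit in their own body: jing, Kdm2, lolal and Dsp1. Of all protein-coding genes, 13.5% did.

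An IDR summit lay at a start of the gene itself in 4 of the 21, beside 15.6% of all protein-coding genes. The strongest signal at an own start was 301 for jing, 258 for lolal, 151 for Kdm2, a histone demethylase gene, and 116 for corto. Both jing, with 14 regions over 119787 bp, and Kdm2, with 7, had a stronger region in an intron away from any start, at 386 and 333. RYBP, sxc and cg had relaxed regions only. The remaining 8 had none, among them Sfmbt, which encodes the partner of Pho in PhoRC, and Scm, whose protein binds polyhomeotic.

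The sequence at the summits of the 11 regions was near that of the list. Windows reaching 50 bp to each side of the summit had a median GC content of 34.7%, from 24.8% at the Pc region and ph-d region 1 to 48.5% at Psc region 2. The median was 33.7% over the IDR list and 37.6% over 22032 relaxed regions that overlapped no IDR region. At those 2 windows 10.2% of the IDR list had a lower GC content.

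The 3 short words searched were read in these windows on both strands. The Pho core, GCCAT, was in 2 of 11 windows, ph-p region 4 and ph-d region 3, beside 12.3% of IDR and 16.3% of other relaxed windows. The core of the GAGA factor site, GAGAG, was in 2 of 11, E(z) region 1 and Psc region 2, which held 3 matches, beside 16.5% and 13.1%. The DNA replication-related element, TATCGATA, was in 0 of 11, beside 0.468% and 0.349%. Each match describes letters in a window and no binding site.

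In width, 3 of the 11 regions had the 430 bp that 73.5% of the IDR list shared. The other 8 ranged from 158 bp at ph-p region 4 to 481 bp at ph-p region 1. By annotation, 5 of the 11 summits were within 500 bp of a start of the gene they were assigned to, and none lay in coding sequence. The same shares of the whole IDR list are not given here, so neither count can be read as a trait of these genes.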

How the data were processed

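ChIP-seq was done on 3 replicates of 1 group. Per the labels, relaxed lists of peaks and background were called for each replicate against a control and for the replicates together. An IDR-thresholded list was made from them. The deposited signal is column 7 of each dm6 list as the authors' peak caller wrote it, on a scale that is not given, and was compared between lists by rank only. No source used here gives the aligner, the caller or the threshold on the IDR. Control libraries and the dm3 lists were not analysed here. The depth of the libraries is unknown.

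Summits (start plus column 10) were assigned to genes of the Ensembl annotation within 2 kb, and to starts within 500 bp. A replicate supported a region when it overlapped 1 of its 6410 strongest by at least 1 bp. Windows of 50 bp to each side of a summit came from the RefSeq genome. Repeats were words of 36 bp, searched with blastn in the regions and counted directly in the gene bodies. Alignments were made with blastn 2.17.0. Python 3.11.15, pandas 2.3.3, numpy 2.4.6 and matplotlib 3.10.9 were used. The assignment rules were tested on simulated data. No statistical test was made.

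The text names all 10 members, every gene with a start within 500 bp of the same summit or whose body holds it, and each of the 21 other Polycomb group genes with an IDR summit. Genes without one, genes at summits outside the 2 kb limit and the alignment of ph-p with ph-d were chosen after values were seen. Members and lists were chosen with earlier results of these data known. Alternatives were other flanks, distances to starts and overlap rules, the 3205 strongest IDR regions and the omission of each replicate.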

Additional observations from a re-analysis of the deposited data

How the results depend on the processing

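With a 1 kb flank or none, 4 of the 10 genes kept an IDR summit and Pc lost its own. The share of all protein-coding genes was then 24.7% or 13.5%, and 6 or 4 of the 21 other Polycomb group genes had a summit. A 5 kb flank added Su(z)2 and Sce, with 17 regions at the members and 42.1% of all genes. Within 250 bp of a start, 2 members remained, Psc and E(z), beside 12.1% of all genes, and within 1000 bp the share of all genes was 18.9%. The 3205 strongest IDR regions kept 5 members, but lost the Psc start, beside 20.02% of all genes near a summit and 9.06% at a start. With the 3205 strongest regions of each replicate, 7 of the 11 regions kept full support, and with a replicate summit within 100 bp 9 did. Neither count has a share of the whole IDR list beside it. When each replicate was left out, 5 members, 4 at starts and 11 regions stayed, while the share of all genes ranged from 23.8% to 24.2%, and at starts from 11.5% to 11.9%. Leaving out a replicate could only shorten the IDR list. As all 11 regions had the support of each replicate, that they stayed was fixed beforehand and adds no evidence of robustness. No paired analysis was possible because there was 1 group. Peak lists give no depth, so a missing region may fall below what these libraries could detect.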
